A study of Mus musculus with 18 samples.

Results

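Eph receptors and ephrins are the subject of this account: 10 genes, 6 encoding receptors (Epha1, Epha2, Epha4, Ephb2, Ephb3, Ephb4) and 4 encoding ligands (Efna1, Efna3, Efnb1, Efnb2), taken by symbol from a deposited table of 25897 genes. Newly made RNA was counted in mouse embryonic stem cells of line E14tg2a (129SV background), with 3 libraries, clones A, B and C, in each of 6 groups. Every cell carried a knockout of Med24, a Mediator subunit, a tetracycline-regulated FLAG-Med24 cDNA in its place, and the cassette cRAF-ErT2-T2A-RTTA, a RAF kinase that 4OHT (4-hydroxytamoxifen) turns on, together with the activator that answers to doxycycline. Rescued cells (named WT in the labels) had been passaged with doxycycline at 500 nM and knockout cells (KO) without it. Culture medium held serum, LIF and 2 µM Chir99021, a GSK3 inhibitor, and all cells spent the last 24 h in serum, LIF and 250 nM PD173074, an FGF receptor inhibitor. Each genotype was sampled without 4OHT (0 h) and after 2 h and 8 h of 250 nM 4OHT, with ethynyl uridine (5 mM) present for the last 15 min so that only recent transcripts were captured. The control cells are themselves knockout cells rescued by a cDNA, and doxycycline was given to rescued cells only, so its own effects and those of Med24 cannot be told apart. No group had 4OHT without the cassette or the same hours without 4OHT, so effects of 4OHT, time and ERK cannot be told apart either.

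Eph receptors are receptor tyrosine kinases whose ligands, the ephrins, are held on the surface of neighbouring cells. A-type ephrins are anchored by a lipid and B-type ephrins span the membrane. Receptors mostly bind ligands of their own letter, EphA4 being a receptor that binds both kinds, and both the receptor-bearing and the ligand-bearing cell can receive a signal. Contact usually ends in repulsion, cell sorting or a change in adhesion. In other cell types Epha2 is known as a gene that the RAS and ERK pathway turns on, while ligand-bound EphA2 lowers ERK activity.

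The most abundant receptor genes, Epha2 and Epha4, moved in opposite directions when ERK was switched on. Epha2 was the gene whose newly made RNA rose most among the members at 2 h in rescued cells, and Epha4 the one that fell most. Without Med24 both still moved the same way, by less at 2 h. Efnb2 rose by 8 h in rescued cells and fell in knockout cells. Epha1 stood higher in knockout cells before ERK activation and then rose less.

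Library totals lay between 6691177 and 14541145 counts, so that 3 counts, taken as the upper limit behind a count of 0, were worth 0.196 to 0.629 CPM (counts scaled to equal library size after TMM, the level unit used throughout). Med24 itself was lower in every knockout library, at 38.9 ± 3.1 CPM against 548 ± 47 CPM at 0 h, 46.5 ± 3.1 against 1635 ± 129 CPM at 2 h and 39.3 ± 4.7 against 404 ± 4.0 CPM at 8 h (SD, n = 3 per group). In rescued cells Med24 thus changed with 4OHT, by log2 1.58 ± 0.067 at 2 h and by -2.02 ± 0.068 from 2 h to 8 h, and the part of this change in the genotype differences was not tested. The gene and marker lists used here were chosen with earlier results of these data known. All 13 genes of a list of ERK-induced genes rose at both times in rescued cells (32.4% and 30.7% of all genes). In knockout cells 12 rose at 2 h and 13 at 8 h (31.5% and 28.2%). Of these genes 0 were higher and 11 lower in knockout than in rescued cells at 2 h (10.8% and 12.9% of all genes). At 8 h 1 was higher and 12 lower (14.5% and 17.1%), and the 2 h response was larger for 1 and smaller for 8 (6.6% and 6.6%). In 3 knockout libraries (2 h A, 8 h B and 8 h C), 13 very abundant genes took 34.2%, 36.4% and 43.9% of the counts, against 17.7% to 24.0% in the other 15. All 12 stem cell markers were detected, with a summed level of 3071 to 3196 CPM at 0 h and 1780 to 1840 CPM at 2 h in rescued cells, and of 2807 to 2836 and 2146 to 2314 CPM in knockout cells. At 2 h 9 of the 12 were called higher in knockout than in rescued cells and none lower (10.8% and 12.9% of all genes). Fibroblast markers summed to 2.88 to 10.1 CPM over all libraries, with 7 of 10 under 1 CPM, among them Col1a2, Col3a1 and Dcn. The others were Col1a1, Thy1 and Pdgfrb. Col1a1 went from 0.503 to 6.99 CPM at 2 h in rescued cells and from 0.275 to 6.93 CPM in knockout cells. Thy1 reached 3.09 and 4.92 CPM at 8 h, and Pdgfrb was at most 2.87 CPM in any group. Trophectoderm markers summed at 0 h to at most 185 CPM in rescued and 212 CPM in knockout libraries, and at 8 h to at least 662 and 492 CPM. At 2 h their sums were 442 to 459 CPM in rescued and 173 to 183 CPM in knockout libraries. Of 7 tested, 0 were then called higher and 5 lower in knockout cells (10.8% and 12.9% of all genes). The mesoderm list summed to at most 6.46 CPM in any library at 0 h, and at 8 h to 41.5 to 43.8 CPM in rescued and at most 26.0 CPM in knockout cells. Primitive endoderm markers summed to 346 to 380 CPM in knockout and 256 to 282 CPM in rescued cells at 0 h. At 2 h the sums were 215 to 308 and 115 to 135 CPM, and at 8 h 223 to 286 and 165 to 173 CPM. Of 7 tested, 5, 6 and 6 were called higher in knockout cells at 0, 2 and 8 h (6.81%, 10.8% and 14.5% of all genes). None was called lower (9.64%, 12.9% and 17.1%). The endothelium list summed in rescued cells to 103 to 114 CPM at 0 h, 75.4 to 86.0 at 2 h and 228 to 241 at 8 h. In knockout cells its sums were 99.6 to 111, 59.5 to 73.0 and 197 to 220 CPM. Neural markers summed to 23.2 to 64.6 CPM over all libraries. The part of these lists in the results for Eph and ephrin genes was not tested, and in bulk RNA fewer cells of a type and less RNA per cell cannot be told apart.

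All 10 members passed the filter on low counts, with 14128 genes tested. Adjusted p values are Benjamini-Hochberg values over those genes from edgeR's quasi-likelihood test, and a member was called at an adjusted p under 0.05. After 2 h in rescued cells 3 members were higher and 5 lower, where 32.4% and 33.8% of all genes were called in those directions. At 8 h against 0 h in rescued cells 3 were higher and 5 lower (30.7% and 31.3% of all genes). Between 2 h and 8 h in rescued cells 4 rose and 4 fell (30.7% and 30.2%). In knockout cells 2 members were higher and 5 lower at 2 h (31.5% and 35.2%), and 2 higher and 6 lower at 8 h (28.2% and 29.6%). The step from 2 h to 8 h in knockout cells had 3 higher and 4 lower (29.4% and 27.7%). A large share of all genes was thus called after 4OHT. Against 0 h, counts of higher members lay near or below that share, with 2 of 10 in knockout cells at both times. Counts of lower members lay above it, most of all at 8 h in knockout cells (6 of 10 beside 29.6%), but with 10 genes this gap rests on few calls. Among those called lower there, Efna3 was lost without any of 3 single libraries. Of the 12 other Eph and ephrin genes, 2 rose and 3 fell in that comparison. The median log2 fold change of the members was -0.31 at 2 h in rescued cells and -0.20 in knockout cells, beside -0.02 and -0.05 over all genes. At 8 h the members' medians were -0.51 and -0.53, beside -0.01 and -0.02.

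**Figure D1:**
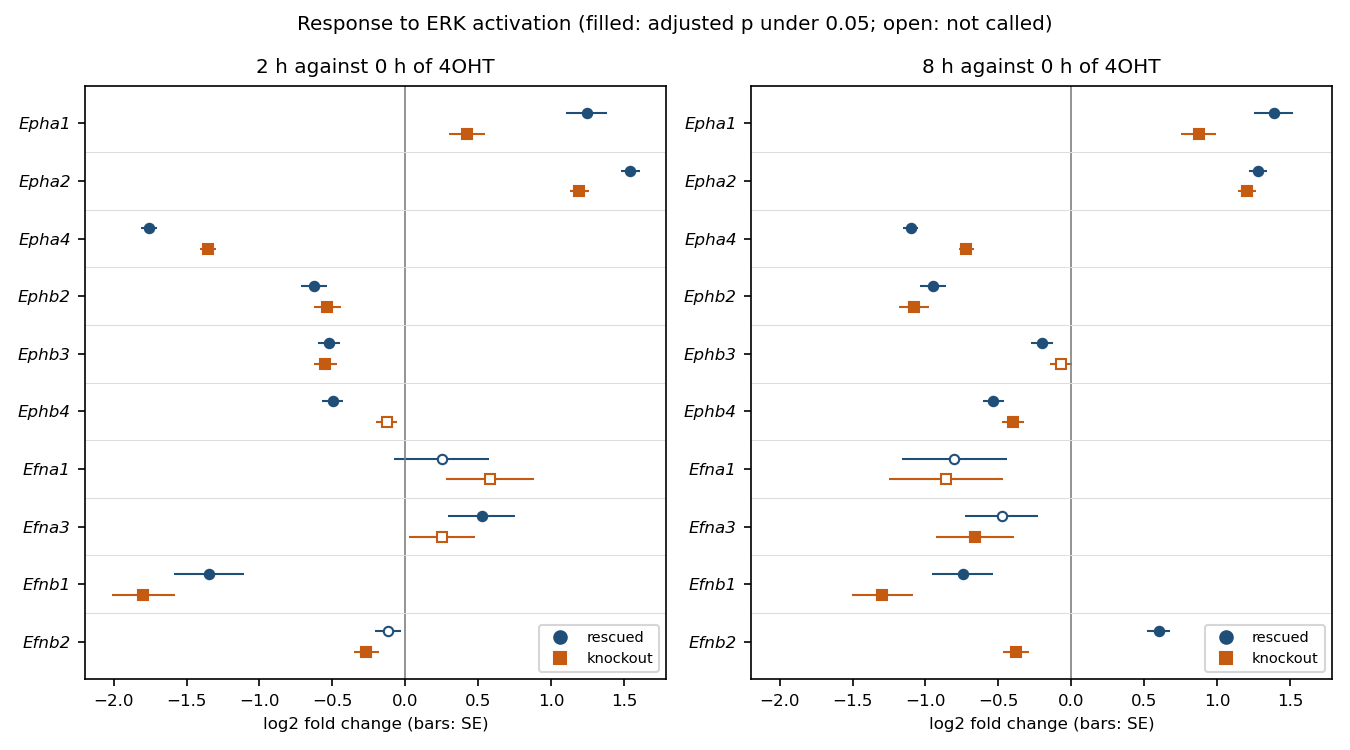
Log2 fold change (x axis, bars are SE) of each member after 2 h (left) and 8 h (right) of 4OHT against 0 h, in rescued (blue circles) and knockout cells (orange squares), filled where edgeR's adjusted p was under 0.05. Epha1 and Epha2 lie right of the zero line and Epha4 and Ephb2 left of it in both genotypes at both times, and Efnb2 lies on opposite sides at 8 h.

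Knockout and rescued cells differed in fewer genes. At 0 h 3 members were higher and 3 lower in knockout cells (6.81% and 9.64% of all genes). At 2 h 1 was higher and 1 lower (10.8% and 12.9%), and at 8 h 1 was higher and 3 lower (14.5% and 17.1%). The response to 2 h of 4OHT itself differed between genotypes for 4 members, with 2 differences above and 2 below zero (6.6% and 6.6% of all genes). For the 8 h response the counts were 1 and 1 (7.88% and 8.88%), and for the step from 2 h to 8 h also 1 and 1 (4.38% and 4.61%). With 10 genes, each of these counts rests on few calls. Within a genotype the 2 h and 8 h comparisons against 0 h share their 0 h libraries, as do the differences of those responses, and the comparisons that involve 2 h share the 2 h libraries.

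**Figure D2:**
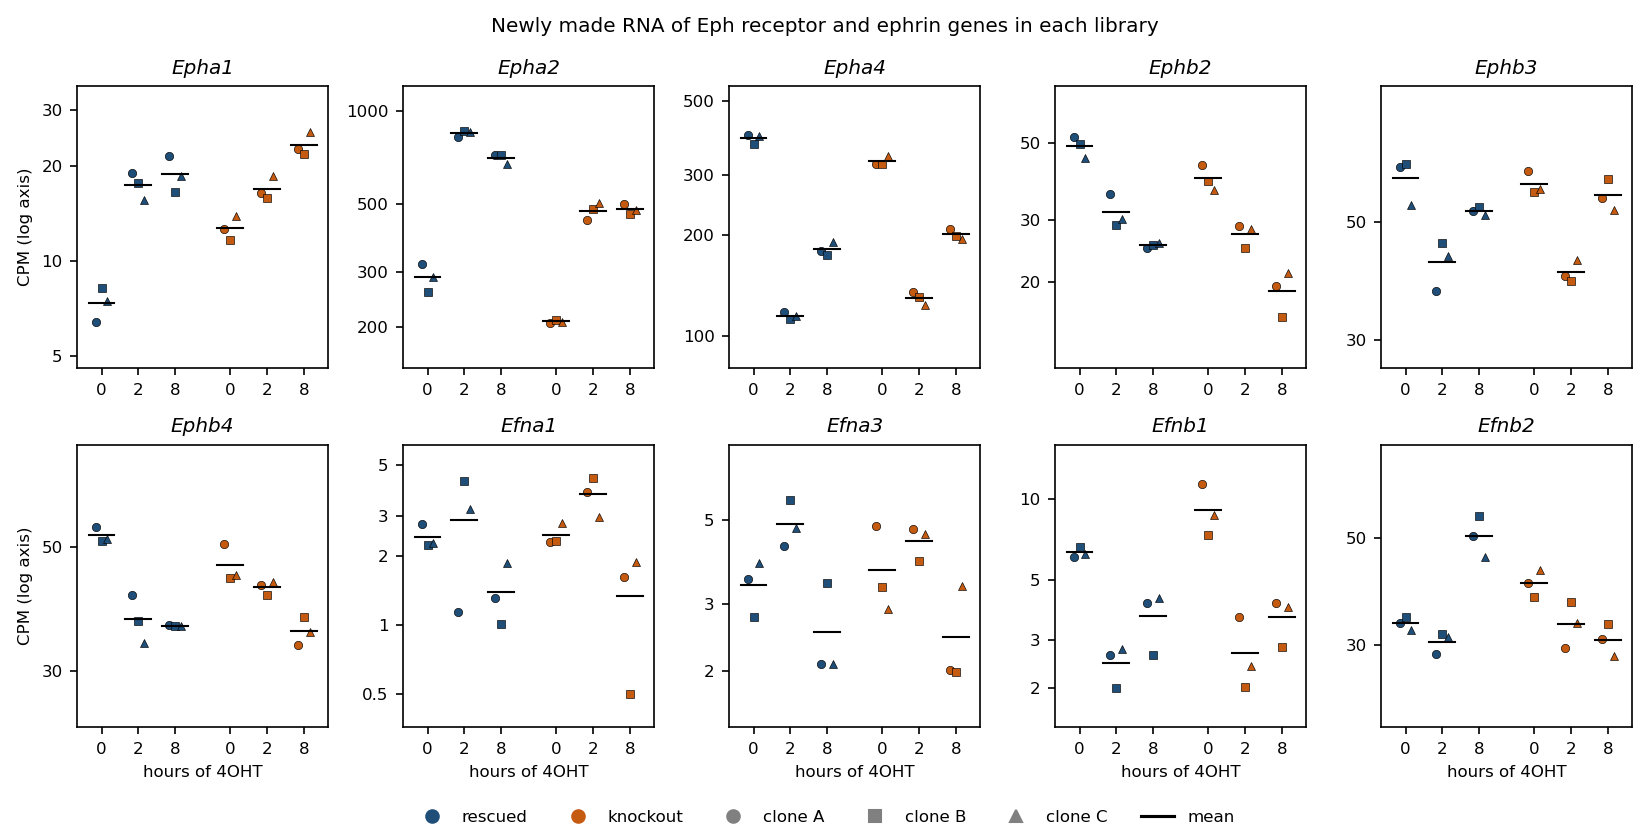
CPM on a log axis of the 10 members in each of the 18 libraries, by hours of 4OHT, with rescued libraries in blue, knockout libraries in orange, a symbol for each clone letter and a line at the mean of 3. Every library with 4OHT stands above all 0 h libraries of its genotype for Epha2 and below them for Epha4. The rescued Efnb2 libraries at 8 h, from 45.5 to 55.4 CPM, stand above all other Efnb2 libraries.

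Epha2 (ENSMUSG00000006445, GRCm38 chr4:141301240-141329384, plus strand, 17 exons) encodes the receptor best known for epithelial junctions and for its preference for ephrin-A1. In rescued cells it stood at 320, 259 and 291 CPM in clones A, B and C at 0 h, at 821, 858 and 854 CPM at 2 h, and at 717, 720 and 673 CPM at 8 h. In knockout cells the values were 206, 211 and 208 CPM at 0 h, 442, 480 and 504 CPM at 2 h, and 497, 462 and 479 CPM at 8 h. Every 4OHT library was above every 0 h library of its genotype, and every knockout library was below every rescued library of its time. The rise at 2 h was 2.91-fold in rescued cells (log2 1.54 ± 0.064, SE, edgeR adjusted p = 1.95e-19) and log2 1.19 ± 0.064 in knockout cells (edgeR adjusted p = 2.45e-16). The 2 h response was smaller without Med24, with a difference of -0.35 ± 0.090 on the log2 scale (edgeR adjusted p = 0.00739), which was not called with libraries scaled by their totals alone (-0.47, adjusted p = 0.192).

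Epha2 differed between the genotypes at every time, the call at 0 h being lost with library totals alone (-0.45, edgeR adjusted p = 0.0503). Knockout cells were lower by a log2 difference of -0.48 ± 0.065 at 0 h, -0.83 ± 0.062 at 2 h and -0.55 ± 0.062 at 8 h (edgeR adjusted p = 3.76e-06, 3.75e-12 and 2.41e-08). By 8 h the responses of the genotypes, log2 1.28 ± 0.063 and 1.20 ± 0.065, differed by -0.07 ± 0.090, which was not called. Rescued cells had by then dropped from their 2 h level (log2 -0.26 ± 0.061, edgeR adjusted p = 0.000445), and knockout cells had not detectably moved (0.01 ± 0.063). The difference between those 2 steps, 0.28 ± 0.088, was at the threshold (edgeR adjusted p = 0.0442). It was not called with library totals alone (0.10, adjusted p = 0.829), as the drop in rescued cells was not (-0.18, adjusted p = 0.283), or with RLE scaling (0.27, adjusted p = 0.053). It was also lost when any of 8 single libraries was left out, with values of 0.23 to 0.29 and adjusted p of 0.0518 to 0.122. Those libraries were knockout 2 h A and B, knockout 8 h A, rescued 2 h B and C, and rescued 8 h A, B and C.

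Epha4 (ENSMUSG00000026235, GRCm38 chr1:77367185-77515088, minus strand, 18 exons) encodes a receptor that takes both ephrin classes and is known for axon guidance. Rescued clones A, B and C held 396, 373 and 394 CPM at 0 h, 118, 112 and 115 CPM at 2 h, and 178, 174 and 190 CPM at 8 h. Knockout clones held 326, 324 and 343 CPM at 0 h, 135, 131 and 124 CPM at 2 h, and 209, 198 and 195 CPM at 8 h. The gene was lower in all libraries at 2 h and had regained part of its level at 8 h, and no library at a later time reached the lowest 0 h library. At 2 h the level was 3.38-fold lower in rescued cells (log2 -1.76 ± 0.054, edgeR adjusted p = 9.38e-23) and log2 -1.35 ± 0.053 in knockout cells. By 8 h the changes against 0 h were -1.10 ± 0.051 and -0.72 ± 0.052. Both steps from 2 h to 8 h were upward, by 0.66 ± 0.054 and 0.63 ± 0.055, and their difference of -0.02 ± 0.077 was not called.

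The fall of Epha4 was shallower without Med24, by 0.40 ± 0.075 at 2 h and 0.38 ± 0.073 at 8 h on the log2 scale (edgeR adjusted p = 0.00026 and 0.00041). With libraries scaled by their totals alone these values became 0.28 and 0.09, neither of them called (adjusted p = 0.543 and 0.747). Relative to the median of all genes in that setting they were 0.41 and 0.39. Before 4OHT, knockout cells were lower (log2 -0.23 ± 0.050, edgeR adjusted p = 0.00191), with no overlap between the groups. After 4OHT the order was turned, with knockout cells higher by 0.18 ± 0.056 at 2 h and 0.15 ± 0.053 at 8 h (edgeR adjusted p = 0.0208 and 0.0272), the second of which became -0.11 with library totals alone. In that setting the differences at 0 h and 2 h, -0.19 and 0.08, were not called either (adjusted p = 0.534 and 0.803). The 8 h difference was also lost with no filter on low counts (0.13, adjusted p = 0.0989) and with only the groups compared (0.16, adjusted p = 0.0509). The call at 2 h was lost without knockout A or B or rescued B or C (0.15 to 0.18, adjusted p 0.0585 to 0.0952), and that at 8 h without knockout A or rescued A or B (0.12 to 0.14, adjusted p 0.0931 to 0.118).

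Because both genes are counted in the same library, the ratio of Epha2 to Epha4 counts does not depend on how libraries are scaled. In rescued cells it lay between 0.695 and 0.809 at 0 h, between 6.99 and 7.65 at 2 h and between 3.54 and 4.14 at 8 h. The corresponding ranges in knockout cells were 0.606 to 0.651, 3.27 to 4.07 and 2.33 to 2.46. No range overlapped another of its genotype, or that of the other genotype at the same time. The geometric mean of the ratio rose 9.86-fold over 2 h in rescued cells and 5.81-fold in knockout cells. An exact two-sided permutation test of the log2 ratio gave p = 0.1 for each of the 9 pairs of groups, the smallest value that 3 against 3 libraries allow.

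Among the counts of all 14 Eph receptor genes in the table, Epha4 held the largest share at 0 h and Epha2 at the later times. Epha2 took 30.9% to 34.7% of receptor counts in rescued cells at 0 h, 74.97% to 76.8% at 2 h and 66.1% to 68.7% at 8 h. In knockout cells its share was 28.2% to 29.6%, then 60.7% to 64.2%, then 56.3% to 57.5%. The knockout share was lower at each time, without overlap. Shares of counts favour long genes. Per kilobase of the longest annotated transcript, Epha2 was the first of the 10 members in all 6 groups (74.1 ± 7.8 CPM per kb in rescued cells at 0 h and 216 ± 5.2 at 2 h) and Epha4 came next (61.2 ± 2.0 and 18.1 ± 0.43). At 0 h in knockout cells these genes stood at 53.2 ± 0.66 and 52.3 ± 1.7 CPM per kb, a gap within the SD. Nascent RNA holds introns, and per kilobase of gene body Epha2 still came first in each group while Epha4, a gene of 147904 bases, stood between places 3 and 5.

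**Figure D3:**
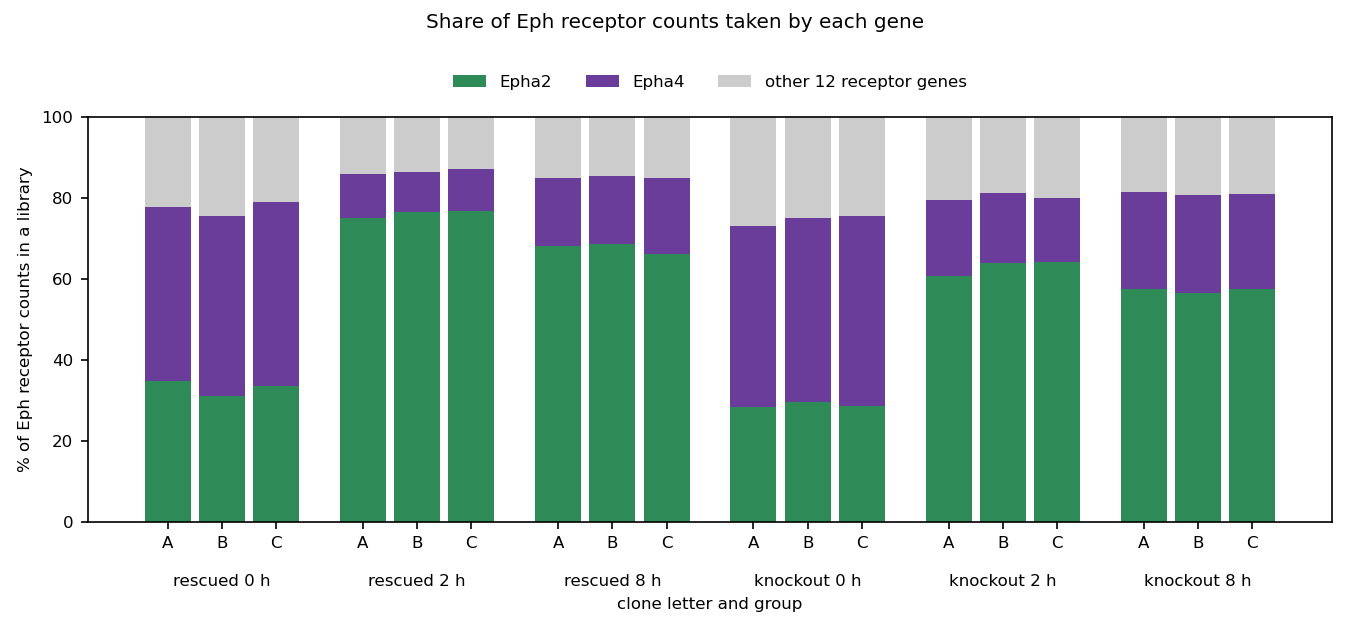
Bars from 0 to 100% show how the counts of 14 Eph receptor genes were divided in each of the 18 libraries, Epha2 in green, Epha4 in purple and the other 12 in grey, with libraries ordered by group and clone letter. Epha2 takes 30.9% to 34.7% of rescued libraries at 0 h and 74.97% to 76.8% at 2 h, and in knockout libraries at 2 h it takes 60.7% to 64.2%.

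The 250 bases before the annotated start are printed here for 4 of the 5 genes whose responses differed between genotypes, so that promoters of genes that rose and fell can be set side by side. The window of Ephb4, which held none of the motifs searched, is not printed. They are RefSeq sequences of GRCm38.p6, given 5′ to 3′ on the gene's strand for Epha2 (chr4:141300971-141301220, plus), Epha4 (chr1:77515089-77515338, minus), Epha1 (chr6:42373269-42373518, minus) and Efnb2 (chr8:8661243-8661492, minus). Capitals mark matches to the motifs searched.
Epha2: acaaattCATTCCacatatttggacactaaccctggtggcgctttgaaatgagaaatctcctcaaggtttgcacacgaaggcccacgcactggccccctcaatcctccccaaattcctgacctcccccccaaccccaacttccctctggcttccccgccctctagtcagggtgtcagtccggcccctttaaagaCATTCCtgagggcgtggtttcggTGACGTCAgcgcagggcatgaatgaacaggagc
Epha4: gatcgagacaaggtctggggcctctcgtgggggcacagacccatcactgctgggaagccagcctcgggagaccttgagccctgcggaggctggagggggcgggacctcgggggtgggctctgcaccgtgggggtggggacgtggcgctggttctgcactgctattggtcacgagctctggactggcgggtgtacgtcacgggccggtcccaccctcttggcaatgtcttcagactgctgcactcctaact
Epha1: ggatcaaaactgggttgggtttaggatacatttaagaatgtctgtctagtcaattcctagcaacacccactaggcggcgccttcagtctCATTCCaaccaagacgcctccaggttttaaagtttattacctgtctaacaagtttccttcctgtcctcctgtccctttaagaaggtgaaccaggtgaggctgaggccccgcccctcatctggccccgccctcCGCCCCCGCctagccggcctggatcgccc
Efnb2: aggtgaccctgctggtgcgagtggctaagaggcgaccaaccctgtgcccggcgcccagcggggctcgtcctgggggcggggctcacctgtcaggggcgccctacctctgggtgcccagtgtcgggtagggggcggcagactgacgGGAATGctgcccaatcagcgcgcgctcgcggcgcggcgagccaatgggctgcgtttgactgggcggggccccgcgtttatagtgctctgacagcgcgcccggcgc

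The search took both strands of 300 bases, from 250 before to 50 after the start, for AP-1 (TGAGTCA), CRE (TGACGTCA), ETS (CCGGAAGT), EGR (GCGGGGGCG), TEAD (GGAATG), E-box (CACGTG) and the CArG box, a set chosen with the values known. Epha2 held a CRE match with its first base at position -33 and TEAD matches at -243 and -56. Epha1 had an EGR match at -29 and a TEAD match at -161, and Efnb2 a TEAD match at -105. No listed letters were found in the Epha4 window, nor in those of the other 6 members, and no match overlapped another. Of 32851 promoters of the same length, 1.79% held the CRE, 2.91% the EGR and 14.7% the TEAD letters, and 5.2%, 3.89%, 7.15% and 1.63% those of AP-1, ETS, E-box and CArG. These are letter matches only and no binding was measured. The Epha4 and Efnb2 windows were richer in G and C (64.0% and 72.3%) than those of Epha1 and Epha2 (58.0% and 54.7%).

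Epha1 (ENSMUSG00000029859, GRCm38 chr6:42358487-42373268, minus strand, 18 exons) encodes the founding member of the family. Rescued clones A, B and C had 6.38, 8.21 and 7.44 CPM at 0 h, 19.0, 17.6 and 15.5 CPM at 2 h, and 21.4, 16.6 and 18.6 CPM at 8 h. Knockout clones had 12.6, 11.6 and 13.9 CPM at 0 h, 16.3, 15.8 and 18.5 CPM at 2 h, and 22.7, 21.8 and 25.6 CPM at 8 h. Knockout libraries began above all rescued ones, were mixed with them at 2 h, and stood above them again at 8 h. The difference at 0 h was log2 0.79 ± 0.14 (edgeR adjusted p = 0.000262), that at 2 h -0.03 ± 0.12, and that at 8 h 0.27 ± 0.11, not called (edgeR adjusted p = 0.0587) although called without rescued 8 h A (0.40, adjusted p = 0.0182).

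The rise of Epha1 over 2 h was log2 1.24 ± 0.14 in rescued and 0.42 ± 0.12 in knockout cells, and the response was lower without Med24 by 0.82 ± 0.19 (edgeR adjusted p = 0.00251). With library totals alone the knockout rise was 0.13 and not called (adjusted p = 0.50), or 0.47 relative to the median of all genes. Over 8 h the rises were 1.39 ± 0.13 and 0.87 ± 0.12. Their difference of -0.51 ± 0.18 missed the threshold (edgeR adjusted p = 0.0502) and passed it without any one of knockout 0 h B, knockout 8 h C, rescued 0 h B or rescued 8 h B (-0.57 to -0.60). It also passed with library totals alone (-0.79, adjusted p = 0.0212, or -0.50 relative to the median of all genes) and with no filter on low counts (-0.54, adjusted p = 0.032). Knockout cells went on rising between 2 h and 8 h (0.45 ± 0.12, edgeR adjusted p = 0.00147), a step just short of the threshold with library totals alone (0.38, adjusted p = 0.0509).

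Epha1 shares 1727 bases, 236 of them exonic, with Zyx on the opposite strand, which encodes the focal adhesion protein zyxin. Zyx rose as well, from 20.03 ± 1.5 to 52.6 ± 5.3 CPM at 2 h in rescued cells and from 25.9 ± 1.3 to 41.5 ± 1.5 CPM in knockout cells. Like Epha1 it was higher in knockout cells at 0 h (log2 0.38 ± 0.11, edgeR adjusted p = 0.0198) and had a smaller 2 h response there (-0.72 ± 0.14, edgeR adjusted p = 0.000597). At 8 h against 2 h it fell in both genotypes (-0.46 ± 0.089 and -0.51 ± 0.10), which Epha1 did not. Whether counting used strand is not given in the sources used here, so reads of the shared bases cannot be told apart.

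The 3 B-class receptor genes among the members, Ephb2, Ephb3 and Ephb4, fell at 2 h in rescued cells. Ephb2 (ENSMUSG00000028664, GRCm38 chr4:136647539-136835988, minus strand), with Ephb3 a known β-catenin target that sorts cells in the gut, had 51.9, 49.6 and 45.3 CPM in rescued clones A, B and C at 0 h, 35.7, 29.2 and 30.2 CPM at 2 h, and 25.03, 25.4 and 25.8 CPM at 8 h. Knockout clones had 43.3, 38.9 and 36.7 CPM, then 28.9, 24.9 and 28.4 CPM, then 19.5, 15.8 and 21.2 CPM. Ephb2 kept falling in both genotypes: no library at 8 h reached the lowest one at 2 h of its genotype. Ephb4 met the same description in knockout cells but not in rescued cells. Its log2 changes over 8 h were -0.95 ± 0.089 in rescued and -1.08 ± 0.10 in knockout cells (edgeR adjusted p = 9.78e-11 and 1.59e-10), and the responses did not differ detectably at 2 h (0.09 ± 0.13) or 8 h (-0.13 ± 0.14). The drop from 2 h to 8 h in rescued cells (-0.32 ± 0.094) was not called without rescued 2 h A (-0.23, adjusted p = 0.0537) or with library totals alone (-0.23, adjusted p = 0.187).

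Knockout cells had less Ephb2 at 0 h (log2 -0.30 ± 0.085, edgeR adjusted p = 0.0143) and at 8 h (-0.43 ± 0.11, edgeR adjusted p = 0.00202), without overlap of the groups. The call at 0 h was lost without knockout C (-0.25, adjusted p = 0.0801) or rescued A (-0.26, adjusted p = 0.0697), and with library totals alone (-0.27, adjusted p = 0.375). At 2 h the groups did not overlap either, the highest knockout library standing at 28.9 CPM and the lowest rescued one at 29.2 CPM, but the difference of -0.21 ± 0.096 was not called.

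Ephb3 (ENSMUSG00000005958, GRCm38 chr16:21204755-21223305, plus strand) dipped and recovered in both genotypes alike. Its rescued mean went from 60.4 ± 5.9 CPM at 0 h to 41.9 ± 4.4 at 2 h and 52.4 ± 0.87 at 8 h, and its knockout mean from 58.9 ± 3.0 to 40.2 ± 1.9 and 56.0 ± 3.8 (SD, n = 3). The falls at 2 h were log2 -0.52 ± 0.077 and -0.55 ± 0.077, and the later rises 0.32 ± 0.077 and 0.48 ± 0.081, all called. No difference between genotypes was called for Ephb3 at any time or in any response. The remaining deficit at 8 h in rescued cells (-0.20 ± 0.074, edgeR adjusted p = 0.0178) was lost without rescued 0 h A or B (-0.17 and -0.16, adjusted p 0.0802 and 0.0989) and with library totals alone (-0.27, adjusted p = 0.0888). That setting called the 8 h change in knockout cells instead (-0.43, edgeR adjusted p = 0.00551), where the median of all genes was -0.38. Relative to that median the knockout change was -0.05.

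Ephb4 (ENSMUSG00000029710, GRCm38 chr5:137350109-137378669, plus strand) encodes a receptor of ephrin-B2 that is known from veins. In rescued clones it stood at 54.4, 51.2 and 51.8 CPM at 0 h, at 41.0, 36.9 and 33.7 CPM at 2 h, and at 36.3, 36.2 and 36.1 CPM at 8 h. In knockout clones it stood at 50.6, 44.0 and 44.6 CPM, then 42.7, 41.1 and 43.4 CPM, then 33.4, 37.4 and 35.2 CPM. The rescued decrease was complete by 2 h (log2 -0.50 ± 0.074, edgeR adjusted p = 7.65e-07), while the knockout change at 2 h of -0.13 ± 0.073 was not called and the decrease came between 2 h and 8 h (-0.27 ± 0.080, edgeR adjusted p = 0.00447). The 2 h responses differed by 0.37 ± 0.10 (edgeR adjusted p = 0.0158), a call lost without rescued 2 h C (0.30, adjusted p = 0.0734). With library totals alone the knockout change at 2 h was called (-0.41, adjusted p = 0.00612) and the difference of responses was not (0.24, adjusted p = 0.632). Relative to the median of all genes in that setting these values were -0.08 and 0.38. Genotype differences in level at 0 h and 2 h, -0.18 and 0.19, were called without knockout 0 h A (-0.24) and rescued 2 h A (0.27), and the second also with RLE scaling (0.20, edgeR adjusted p = 0.0497). At 8 h the levels were alike in size, 36.2 ± 0.13 and 35.3 ± 2.0 CPM, with a difference of -0.04 ± 0.079. Ephb4 shares 33 exonic bases with Zan on the opposite strand, a gene at no more than 1.35 ± 0.22 CPM in any group.

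The A-type ligand genes among the members, Efna1 and Efna3, were at low levels. Efna1 (ENSMUSG00000027954, GRCm38 chr3:89271733-89281142, minus strand), the preferred ligand gene for Epha2, had 3 to 37 counts per library. Its rescued means were 2.42 ± 0.29, 2.87 ± 1.6 and 1.39 ± 0.43 CPM at 0, 2 and 8 h, and its knockout means 2.47 ± 0.28, 3.71 ± 0.71 and 1.33 ± 0.73 CPM. Rescued clone A at 2 h, with 1.13 CPM, was far under its partners at 4.25 and 3.22 CPM. No change from 0 h was called with all libraries, TMM scaling and the filter on low counts. The decreases from 2 h to 8 h were called (log2 -1.05 ± 0.34 and -1.44 ± 0.37, edgeR adjusted p = 0.00917 and 0.00127). The first was not called without rescued 2 h B (-0.69, adjusted p = 0.125). The 8 h decrease in rescued cells (-0.80) passed without rescued 8 h C (-1.004), with library totals alone (-0.87), with no filter (-0.78), with only the groups compared (-0.80) and without the 3 libraries of high abundant-gene share (-0.80). That in knockout cells (-0.86) passed without knockout 8 h C (-1.05), with library totals alone (-1.20, or -0.82 relative to the median of all genes) and with no filter (-0.86). The 2 h rise in knockout cells passed with only the groups compared (0.60, edgeR adjusted p = 0.0326). No difference between genotypes was detectable for Efna1 at this depth.

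Efna3 (ENSMUSG00000028039, GRCm38 chr3:89313899-89322965, minus strand), another lipid-anchored ligand gene, lay between 2.00 and 5.63 CPM in all libraries. Its highest group was the rescued one at 2 h (4.89 ± 0.69 CPM, against 3.38 ± 0.54 CPM at 0 h), and its lowest the knockout one at 8 h (2.46 ± 0.78 CPM). The decreases from 2 h to 8 h, -1.001 ± 0.23 and -0.91 ± 0.26, were called (edgeR adjusted p = 0.000389 and 0.00409). The rise over 2 h in rescued cells (0.52 ± 0.23, edgeR adjusted p = 0.0452) was lost without any one of rescued 0 h A or B and rescued 2 h B or C (0.41 to 0.55, adjusted p 0.0706 to 0.162), with DESeq2 (0.54, adjusted p = 0.108) and with library totals alone (0.36, adjusted p = 0.221). The decrease over 8 h in knockout cells (-0.66 ± 0.27, edgeR adjusted p = 0.0366) was lost without knockout 0 h A, 8 h A or 8 h B (-0.43 to -0.58, adjusted p 0.108 to 0.221), with DESeq2 (-0.62, adjusted p = 0.111) and with only the groups compared (-0.64, adjusted p = 0.075). Efna3 also shares 344 exonic bases with the antisense gene Gm15998, so its counts are uncertain.

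The B-type ligand genes behaved differently from each other. Efnb1 (ENSMUSG00000031217, GRCm38 chrX:99136130-99148991, plus strand), an X-linked gene whose loss of function disturbs skull sutures, stood at 6.13, 6.68 and 6.24 CPM in rescued clones at 0 h, at 2.64, 2.00 and 2.77 CPM at 2 h, and at 4.12, 2.66 and 4.29 CPM at 8 h. Knockout clones had 11.4, 7.37 and 8.75 CPM, then 3.66, 2.01 and 2.41 CPM, then 4.13, 2.83 and 3.98 CPM. All later libraries were under all 0 h libraries. The falls at 2 h were log2 -1.35 ± 0.24 in rescued and -1.79 ± 0.22 in knockout cells (edgeR adjusted p = 1.15e-05 and 1.91e-08), and those at 8 h -0.74 ± 0.21 and -1.30 ± 0.21. None of the differences between these responses was called (-0.45 ± 0.34 at 2 h and -0.55 ± 0.30 at 8 h).

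The higher Efnb1 level of knockout cells at 0 h (log2 0.52 ± 0.18, edgeR adjusted p = 0.0474) was lost when any of 5 of the 6 libraries was left out. These were knockout A (0.34), whose 11.4 CPM was the highest value, knockout C (0.55), and rescued A (0.49), B (0.56) and C (0.50), with adjusted p of 0.079 to 0.292. It was lost too with DESeq2 (0.52, adjusted p = 0.144) and with library totals alone (0.56, adjusted p = 0.164). A partial recovery between 2 h and 8 h in rescued cells (0.60 ± 0.25, edgeR adjusted p = 0.0385) was lost without any one of rescued 2 h A or B and rescued 8 h A or C (0.47 to 0.65, adjusted p 0.0592 to 0.166) and with DESeq2 (0.58, adjusted p = 0.0939). The same step in knockout cells, 0.50 ± 0.27, was not called in full but was without knockout 2 h A (0.74, adjusted p = 0.0374).

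Efnb2 (ENSMUSG00000001300, GRCm38 chr8:8617434-8661242, minus strand, 5 exons) encodes the membrane-spanning ligand of EphB4 and EphA4, a marker of arteries. Rescued clones A, B and C held 33.3, 34.2 and 32.3 CPM at 0 h, 28.8, 31.7 and 31.2 CPM at 2 h, and 50.3, 55.4 and 45.5 CPM at 8 h. Knockout clones held 40.3, 37.8 and 42.9 CPM at 0 h, 29.6, 36.8 and 33.3 CPM at 2 h, and 30.8, 33.1 and 28.5 CPM at 8 h. Knockout libraries were all higher before 4OHT and all lower after 8 h. Over 8 h Efnb2 rose in rescued cells (log2 0.60 ± 0.082, edgeR adjusted p = 1.92e-07) and fell in knockout cells (-0.38 ± 0.088, edgeR adjusted p = 0.000495). The responses differed by -0.98 ± 0.12 (edgeR adjusted p = 6.11e-07), the largest difference of the 8 h response among the members.

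The rise of Efnb2 in rescued cells took place between 2 h and 8 h (0.72 ± 0.082, edgeR adjusted p = 6.42e-09), a step with no called counterpart in knockout cells (-0.11 ± 0.092), and the steps differed by -0.83 ± 0.12 (edgeR adjusted p = 1.91e-05). At 8 h knockout cells were lower by log2 -0.70 ± 0.085 (edgeR adjusted p = 9.63e-08). The higher level at 0 h (0.28 ± 0.085, edgeR adjusted p = 0.0247) was lost without knockout A or C or rescued A or C (0.23 to 0.27, adjusted p 0.0608 to 0.114), with DESeq2 (0.27, adjusted p = 0.0598) and with library totals alone (0.31, adjusted p = 0.319). Efnb2 holds 3 annotated genes of its own strand that share no exonic base with it, E230020D15Rik, Gm45074 and Gm45073 (5899, 1240 and 4247 bases). All 3 had 0 counts in each of the 18 libraries. Of the knockout libraries at 8 h, B and C were among those with a large share of very abundant genes. Without these and knockout 2 h A, the fall of Efnb2 over 2 h in knockout cells (-0.27 ± 0.085) became -0.18 (edgeR adjusted p = 0.0649), and without knockout 2 h A alone it was -0.20 (adjusted p = 0.0508). No other call on a member was lost without those 3 libraries.

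**Figure D4:**
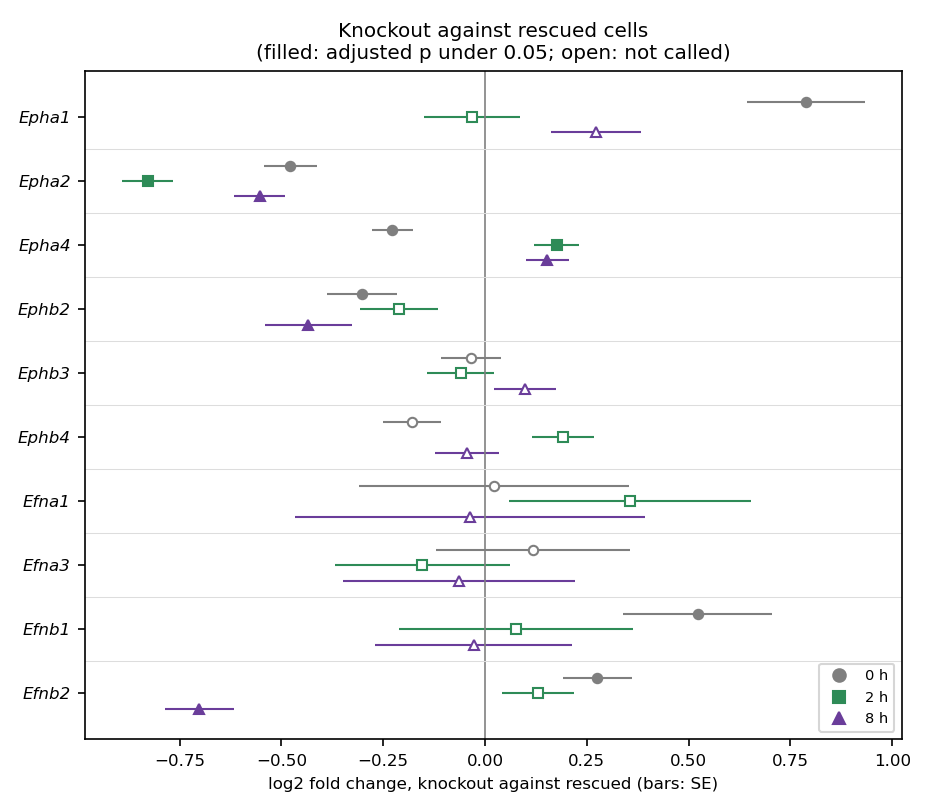
Log2 fold change of knockout against rescued cells (x axis, bars are SE) for each member at 0 h (grey circles), 2 h (green squares) and 8 h (purple triangles), filled where edgeR's adjusted p was under 0.05. Epha2 is left of zero at all 3 times, Epha1 is furthest right at 0 h (0.79), and Efnb2 goes from 0.28 at 0 h to -0.70 at 8 h.

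The other 12 Eph and ephrin genes of the table also passed the filter, most of them at low levels. In rescued cells 0 of 12 rose and 2 fell at 2 h (32.4% and 33.8% of all genes), and 2 rose and 3 fell at 8 h (30.7% and 31.3%). In knockout cells the counts were 2 and 3 at both times (31.5% and 35.2% at 2 h, 28.2% and 29.6% at 8 h). At 0 h none differed between genotypes (6.81% and 9.64%), while 0 were higher and 2 lower in knockout cells at 2 h (10.8% and 12.9%) and 2 were higher and 2 lower at 8 h (14.5% and 17.1%). At 0 h no gene of the list passed an unadjusted p of 0.05 in edgeR or DESeq2, and at 2 h in rescued cells 1 rose by that measure in edgeR and 0 in DESeq2. By DESeq2 none of the list was called between genotypes at 2 h (2 were lower at an unadjusted p under 0.05), and at 8 h 0 were higher and 2 lower.

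Efna5, a lipid-anchored ligand of EphA receptors known from retinal mapping, also had a late rise that was larger in rescued cells. It went from 12.8 ± 2.2 to 15.5 ± 2.8 and 44.7 ± 2.9 CPM in rescued cells, and from 12.2 ± 0.88 to 15.2 ± 1.8 and 27.1 ± 1.4 CPM in knockout cells. Its 8 h responses were log2 1.80 ± 0.11 and 1.17 ± 0.12, which differed by -0.64 ± 0.17 (edgeR adjusted p = 0.00864). Efna4, of the same class, fell at 2 h in both genotypes (-0.73 ± 0.13 and -0.75 ± 0.12). By 8 h it was back at 15.5 ± 1.2 CPM in rescued cells and still at 9.45 ± 1.3 CPM in knockout cells, and its 8 h responses differed by -0.84 ± 0.17 (edgeR adjusted p = 0.000782). Efnb2, Efna5 and Efna4 were thus the ephrin genes with a called lower 8 h response in knockout cells.

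Ephb6, which encodes a receptor without kinase activity, fell in both genotypes, from 7.30 ± 2.5 to 2.99 ± 0.53 CPM at 2 h in rescued cells and from 7.61 ± 0.18 to 3.17 ± 0.41 CPM in knockout cells. Epha7 rose between 2 h and 8 h in both (log2 0.45 ± 0.14 and 0.43 ± 0.14). Efna2 was lower in knockout cells at 2 h, at 4.47 ± 0.036 against 6.90 ± 0.67 CPM (-0.63 ± 0.18, edgeR adjusted p = 0.0098). Epha10, another kinase-dead receptor gene, was also lower there, at 1.67 ± 0.92 against 3.32 ± 0.77 CPM (-0.92 ± 0.32, edgeR adjusted p = 0.0344), with overlapping groups. Epha5 and Epha6 fell over 8 h in rescued cells to 0.637 ± 0.23 and 1.48 ± 0.75 CPM and stood at 1.53 ± 0.75 and 2.71 ± 0.36 CPM in knockout cells. Epha8 rose over 8 h in rescued cells, from 0.559 ± 0.12 to 1.96 ± 0.95 CPM. Efnb3 was called higher after 2 h in knockout cells (0.47 ± 0.20, edgeR adjusted p = 0.0385). Epha3 and Ephb1, at 2.21 ± 0.77 CPM or less in every group, were called in no comparison.

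Genes that carry signals from Eph receptors and ephrins, such as exchange factors, kinases, adaptors and phosphatases, were counted as a list of 44, of which 43 were in the table and 41 were tested. Over 2 h in rescued cells 20 of 41 rose and 16 fell (32.4% and 33.8% of all genes), and in knockout cells 18 rose and 14 fell (31.5% and 35.2%). In knockout against rescued cells 1 was higher and 10 lower at 0 h (6.81% and 9.64%), 5 higher and 14 lower at 2 h (10.8% and 12.9%), and 3 higher and 18 lower at 8 h (14.5% and 17.1%). The list's median log2 difference was -0.08, -0.02 and -0.10 at those times, beside 0.01, 0.00068 and -0.0030 over all genes.

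The 4 partner genes with the smallest p at 2 h in rescued cells were Sdcbp, Pard6b, Ptpn1 and Fyn. Sdcbp, whose product syntenin binds the tails of B-type ephrins, rose from 38.4 ± 0.73 to 127 ± 4.9 CPM in rescued cells and from 42.5 ± 3.1 to 105 ± 6.1 CPM in knockout cells. Pard6b, a polarity protein gene, rose from 49.6 ± 1.6 to 185 ± 23 CPM and from 60.4 ± 0.87 to 131 ± 9.7 CPM. Ptpn1, which encodes a tyrosine phosphatase that acts on Eph receptors, rose by log2 1.47 ± 0.060 and 1.402 ± 0.061. Fyn, a SRC-family kinase gene, rose by 1.04 ± 0.078 and 1.16 ± 0.080 at 2 h and reached 148 ± 12 CPM in rescued cells at 8 h.

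For knockout against rescued cells at 2 h the smallest p belonged to Pard6b (log2 -0.49 ± 0.063), Tiam1 (-0.39 ± 0.060), Shb (-0.47 ± 0.073) and Rin1 (-0.95 ± 0.15), all lower in knockout cells. Tiam1, a RAC exchange factor gene, was lower in knockout cells at 0 h too (179 ± 9.5 against 248 ± 15 CPM). Shb, an adaptor gene, fell and then rose to 352 ± 17 CPM at 8 h in rescued cells and to 156 ± 8.2 CPM in knockout cells. Rin1, which encodes an effector of RAS that acts in EphA receptor uptake, rose to 12.2 ± 1.2 CPM at 2 h in rescued cells and stood at 6.31 ± 0.67 CPM in knockout cells.

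For the receptors and the ligands with the widest range of group means, the genes whose log2 CPM followed them most closely over the 18 libraries were sought among 10466 genes. Nearest to Epha2 were Hbegf (Pearson r = 0.99), which encodes an EGF receptor ligand, Pde9a (0.985) and Arntl (0.983). Hbegf moved over a wider range, from 22.2 ± 2.3 to 431 ± 9.6 CPM in rescued and from 15.4 ± 1.5 to 96.5 ± 7.0 CPM in knockout cells at 2 h. Nearest to Epha4 were Hunk (0.99), Prep (0.989) and Ogfrl1 (0.987). Efnb1 was followed by Tmem120a (0.95), Hk1 (0.949) and Bmf (0.948), and Efna1 less closely by Pif1 (0.851), Mrps18c (0.828) and Esrra (0.822). These correlations describe 18 libraries that share 6 groups and their scaling, and the candidates are not independent of one another.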

How the data were processed

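The authors deposited raw counts of reads for each gene as whole numbers, in one table of 18 libraries and 25897 gene symbols. Per the submitters' processing notes, the tools were STAR, featureCounts and DESeq and the build was mm10. No version, annotation, strand setting or treatment of introns is given in those sources. Positions and lengths came from GENCODE release M21 of GRCm38, which held 98.7% of the symbols, and promoters from RefSeq for 10 of 10 members.

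Counts were fitted with edgeR 4.0.16 in R 4.3.3 (TMM scaling, filterByExpr with a minimum count of 10, a quasi-likelihood model with 6 group means over all 18 libraries). The 12 comparisons were adjusted by Benjamini-Hochberg over the 14128 genes tested, with a threshold of 0.05. Log2 fold changes are given ± SE, taken as the size of the change over the square root of F, and CPM as mean ± SD. The fit was tested on simulated counts. Pattern neighbours needed a mean of at least 5 CPM and were taken on log2 CPM with a prior count of 2. No pair of replicates agreed within sampling noise by a chi-square test. The labels name clones but not how the cultures were handled, so p values measure the spread between these libraries, which may be technical. No spike-in is named, so a fold change is measured against the rest of its library. Floors of 3 counts cover counting error only.

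The members, gene lists, markers and motifs were chosen with earlier results of these data known. Named genes were all members, all 12 other family genes, the 4 partner genes of smallest p in each of 2 comparisons, and the 3 nearest genes in pattern (predicted genes left out) to each of 4 members. Alternatives were DESeq2 1.42.0, RLE scaling, library totals alone, no filter, a replicate block, only the groups compared, leaving out 3 libraries, and leaving out each library of the groups compared. No protein sequences were used here.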

Additional observations from a re-analysis of the deposited data

Results flagged for a closer look

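For 5 members the response to ERK activation differed between knockout and rescued cells by the test of the difference itself (edgeR, Benjamini-Hochberg adjusted, knockout minus rescued, log2 scale). Over 2 h these were Epha1 (-0.82, adjusted p = 0.00251), Epha2 (-0.35, adjusted p = 0.00739), Epha4 (0.40, adjusted p = 0.00026) and Ephb4 (0.37, adjusted p = 0.0158). Epha1 and Epha2 rose less and Epha4 fell less in knockout cells, and Ephb4 fell in rescued cells with no called change in knockout cells. The Ephb4 difference was lost without rescued 2 h C (0.30, edgeR adjusted p = 0.0734).

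Over 8 h the responses differed for Epha4 (0.38, adjusted p = 0.00041) and Efnb2 (-0.98, adjusted p = 6.11e-07) in edgeR. For the step from 2 h to 8 h they differed for Epha2 (0.28, adjusted p = 0.0442) and Efnb2 (-0.83, adjusted p = 1.91e-05) in edgeR, the first of which was lost without any of 8 single libraries (0.23 to 0.29). Efnb2 was called in opposite directions in the genotypes at 8 h. Of the 3 knockout libraries at 8 h, B and C had a high share of very abundant genes. With those and knockout 2 h A left out, each of these 8 differences was still called. With libraries scaled by their totals alone 5 of the 8 were not: over 2 h Epha2 (-0.47, edgeR adjusted p = 0.192), Epha4 (0.28, adjusted p = 0.543) and Ephb4 (0.24, adjusted p = 0.632), over 8 h Epha4 (0.09, adjusted p = 0.747), and the Epha2 step (0.10, adjusted p = 0.829).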

How the results depend on the processing

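Of 66 calls on members over 12 comparisons, 52 held whichever single library of the groups compared was left out. Libraries of the other groups, which share the fit, were not left out. With single libraries of the groups compared left out, the number of members called ranged from 3 to 6 (6 with all libraries) for knockout against rescued cells at 0 h. It ranged from 1 to 3 (2) at 2 h, and from 1 to 2 (2) for the difference of the step from 2 h to 8 h. That last count was 1 with RLE scaling, 1 with the clone letter as a replicate block and 1 with library totals alone. With library totals alone 1 member was also called at 0 h, 1 at 2 h and 1 for the difference of the 2 h response, and Epha4 in knockout against rescued cells at 8 h turned to -0.11, or 0.15 relative to the median of all genes. In that setting the median of all genes shifted to -0.18 and -0.33 for the 2 h responses, -0.38 for the 8 h response of knockout cells, -0.26 for knockout against rescued at 8 h, and -0.13, -0.30 and -0.16 for the 3 differences of responses.

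Library totals alone also changed counts over all genes: 420 in place of 2324 were called between genotypes at 0 h, 1661 in place of 3350 at 2 h, 589 in place of 1866 for the difference of the 2 h response and 371 in place of 1271 for that of the step. The share of calls that were higher moved from 48.9% to 31.9% (2 h, rescued), 50.4% to 61.2% (8 h against 2 h, rescued), 47.2% to 21.2% and 48.8% to 14.7% (2 h and 8 h, knockout), 45.7% to 18.4% and 45.8% to 8.17% (genotypes at 2 h and 8 h), and from 50% to 9.68%, 47% to 6.15% and 48.7% to 21.3% (differences). The cause was not tested. DESeq2 lost 5 member calls (Efna3 at 2 h in rescued and 8 h in knockout cells, Efnb1 from 2 h to 8 h in rescued cells, and Efnb1 and Efnb2 at 0 h) and turned none.

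The block changed 3 member values: Efna3 at 2 h in rescued cells (adjusted p = 0.052) and the Epha2 step (0.054) were lost, and the Epha1 difference at 8 h (0.0488) was gained. The labels name a clone by letter in each group and do not say whether a letter marks the same clone throughout, so the letters were not used as pairs. Same-letter libraries deviated together with a mean r of 0.016 (-0.101 to 0.0826 over 45 pairs), and 15 of 18 correlated best with their own letter, a hint of pairing from the data and not from the design. The member values over all settings, the main fit and called values included, numbered 1860. Of these, 61 differed in sign from the main fit and were called in neither. At 5.63 CPM or less in every library, Efna1 and Efna3 allow only large changes to be seen.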

Other observations

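Among the counts of the 8 ephrin genes in the table, Efnb2 held 33.9% to 46.1% over the 18 libraries. Efna5 held 13.5% to 17.6% in rescued and 11.9% to 13.7% in knockout libraries at 0 h, and 32.0% to 36.7% and 30.7% to 34.0% at 8 h. At 8 h these ranges overlapped between genotypes, while the level of Efna5 was lower in knockout cells (log2 -0.72 ± 0.10, edgeR adjusted p = 1.21e-06), as were those of Efnb2 (-0.70 ± 0.085, edgeR adjusted p = 9.63e-08) and Efna4 (-0.74 ± 0.13, edgeR adjusted p = 3.27e-05).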
